A study of Mus musculus with 2 samples.

Results

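The 47 genes described here encode proteins that make ribosomal RNA and assemble it into ribosomal subunits: the small nucleolar ribonucleoproteins (snoRNPs), RNA polymerase I and its factors, and the processing and maturation factors of both subunits. They were chosen by symbol from a fixed list, and all 47 were present among 23210 genes. Expression was measured by RNA sequencing in mouse hematopoietic stem cells (HSCs), the bone marrow cells that renew all blood lineages. Cells of both groups were CD150-positive and Flt3-negative and fell in the LSK fraction (negative for lineage markers, positive for Sca-1 and Kit), and both carried a Tomato fluorescent reporter of Satb1, a gene for a chromatin-organizing protein of lymphoid cells. The groups were Satb1-Tomato-positive (SATB1-positive) and Satb1-Tomato-negative (SATB1-negative) HSCs, with 1 library each. Strain, age, sex and the number of pooled animals were not given in the sources used here.

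In the nucleolus, RNA polymerase I transcribes the precursor of the ribosomal RNAs from the ribosomal DNA repeats. Box C/D snoRNPs methylate and box H/ACA snoRNPs pseudouridylate that precursor, and large assemblies then cut and fold it into the small and large subunits. The output of this pathway is known to scale with cell growth, and HSCs at rest are known for a low rate of protein synthesis.

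With 1 library per group there is no replicate check and no p-value. The values deposited by the authors are FPKM, sequenced fragments per length of transcript and per depth of library. Levels are therefore set side by side between genes as well as between libraries. Such comparisons rest on the authors' transcript lengths and handling of fragments that fit several places, which were not given in the sources used here. The log2 ratio used here is log2((SATB1-positive FPKM + 1)/(SATB1-negative FPKM + 1)), whereas folds are FPKM divided by FPKM. The 2-fold rule of size took genes with a log2 ratio from 1 upward or from -1 downward that reached 5 FPKM in the higher library. The smaller rule took log2 ratios from 0.32 upward or from -0.32 downward with the same minimum, which 46 of the 47 genes reached. Intervals beside folds are exact 95% intervals for counting error only, from fragment numbers estimated at depths of about 26540000 fragments for the SATB1-positive and 34920000 for the SATB1-negative library. They leave out any spread between animals or sorts.

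Satb1, on whose reporter the cells were sorted, was at 8.26 FPKM in the SATB1-positive and 2.37 FPKM in the SATB1-negative library. All 18 listed genes of stem and progenitor cells were detected in both libraries, the lowest at 1.08 FPKM, and 14 of them had a log2 ratio below 0. Flt3, whose protein was selected against in the sort, was at 27.1 FPKM in SATB1-positive and 17.3 FPKM in SATB1-negative HSCs. Cd48, a surface gene known to be low in the most primitive HSCs, was at 145 FPKM in SATB1-positive and 47.6 FPKM in SATB1-negative HSCs. Slamf1, which encodes the sort marker CD150, was at 11.9 FPKM in SATB1-positive and 15.97 FPKM in SATB1-negative HSCs. Markers of other cells differed between the libraries. The 20 listed T and natural killer cell genes summed to 485 FPKM in the SATB1-positive and 196 FPKM in the SATB1-negative library. The highest single value among them was 313 FPKM in the SATB1-positive and 152 FPKM in the SATB1-negative library. Of the 20, 1 was under 1 FPKM in the SATB1-positive and 10 in the SATB1-negative library, and none was at 0. All 19 that reached 1 FPKM in either library had a log2 ratio above 0, with a median of 1.15. The 9 mast cell and basophil genes, which include Kit, summed to 882 FPKM in SATB1-positive and 485 FPKM in SATB1-negative HSCs. Kit alone was at 286 FPKM in SATB1-positive and 318 FPKM in SATB1-negative HSCs. Of the 8 that reached 1 FPKM, 7 passed the 2-fold rule as higher and 1, Kit, had a ratio below 0. The median log2 ratio of the 8 was 1.88. The 9 stromal and endothelial genes summed to 116 FPKM in SATB1-positive and 58.9 FPKM in SATB1-negative HSCs. Of the 6 of these that reached 1 FPKM, 5 had a ratio above 0 and 1 below. The 13 neutrophil granule genes summed to 3846 FPKM in SATB1-positive and 1964 FPKM in SATB1-negative HSCs, but 6 of them had a log2 ratio above 0 and 7 below, with a list median of -0.10. The 12 erythroid genes summed to 1709 FPKM in SATB1-positive and 2124 FPKM in SATB1-negative HSCs, and of the 10 that reached 1 FPKM, 5 had a ratio above 0 and 5 below. Of 10 B cell genes 9 were under 1 FPKM in each library. Cell cycle genes differed too: all 22 listed genes of G2 and M phase were higher in the SATB1-positive library, with a median log2 ratio of 0.50, and 18 of 20 S phase genes had a ratio above 0, for which the list median was 0.13. The part of these differences in the ribosome biogenesis genes was not tested. In these bulk libraries a difference in the number of cells of a type and a difference in RNA per cell cannot be told apart.

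Most of the ribosome biogenesis genes were slightly higher in the SATB1-positive library. Of the 47 genes, 36 had a log2 ratio above 0 and 11 below 0, with a median of 0.15. Among all 11873 genes that reached 1 FPKM, 49.0% had a ratio above 0 and 51.0% below 0, and the median was -0.0059. The differences were small for nearly every gene, since 42 of the 47 lay between -0.5 and 0.5. Fbl, Gar1 and Ncl stood above the other genes and Npm3 stood below them, and without these 4 genes the median was 0.13. The summed level of the 47 genes was 4575 FPKM in the SATB1-positive and 4003 FPKM in the SATB1-negative library, of which Npm1 alone made up 1645 FPKM in SATB1-positive and 1387 FPKM in SATB1-negative HSCs.

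By the 2-fold rule, 2 of the 46 eligible genes were higher, Fbl and Gar1, where 1.31% of all 9308 eligible genes passed. Npm3 was the 1 gene that passed as lower, where 0.688% of all genes passed. By the smaller rule, 10 of the 46 genes were higher, 21.7%, against 11.1% of all genes. Npm3 was again the 1 lower gene, 2.17%, against 10.2% of all genes. By the smaller rule the share on the higher side was thus above that of all genes and the share on the lower side below it, and 35 genes passed in neither direction. By the 2-fold rule the shares of the 46 genes, 4.35% higher and 2.17% lower, rest on 2 genes and 1 gene. The counting interval of the fold lay above 1 for 32 of the 46 genes, against 33.8% of all genes matched to a gene model, and below 1 for 6, against 32.2%.

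**Figure D1:**
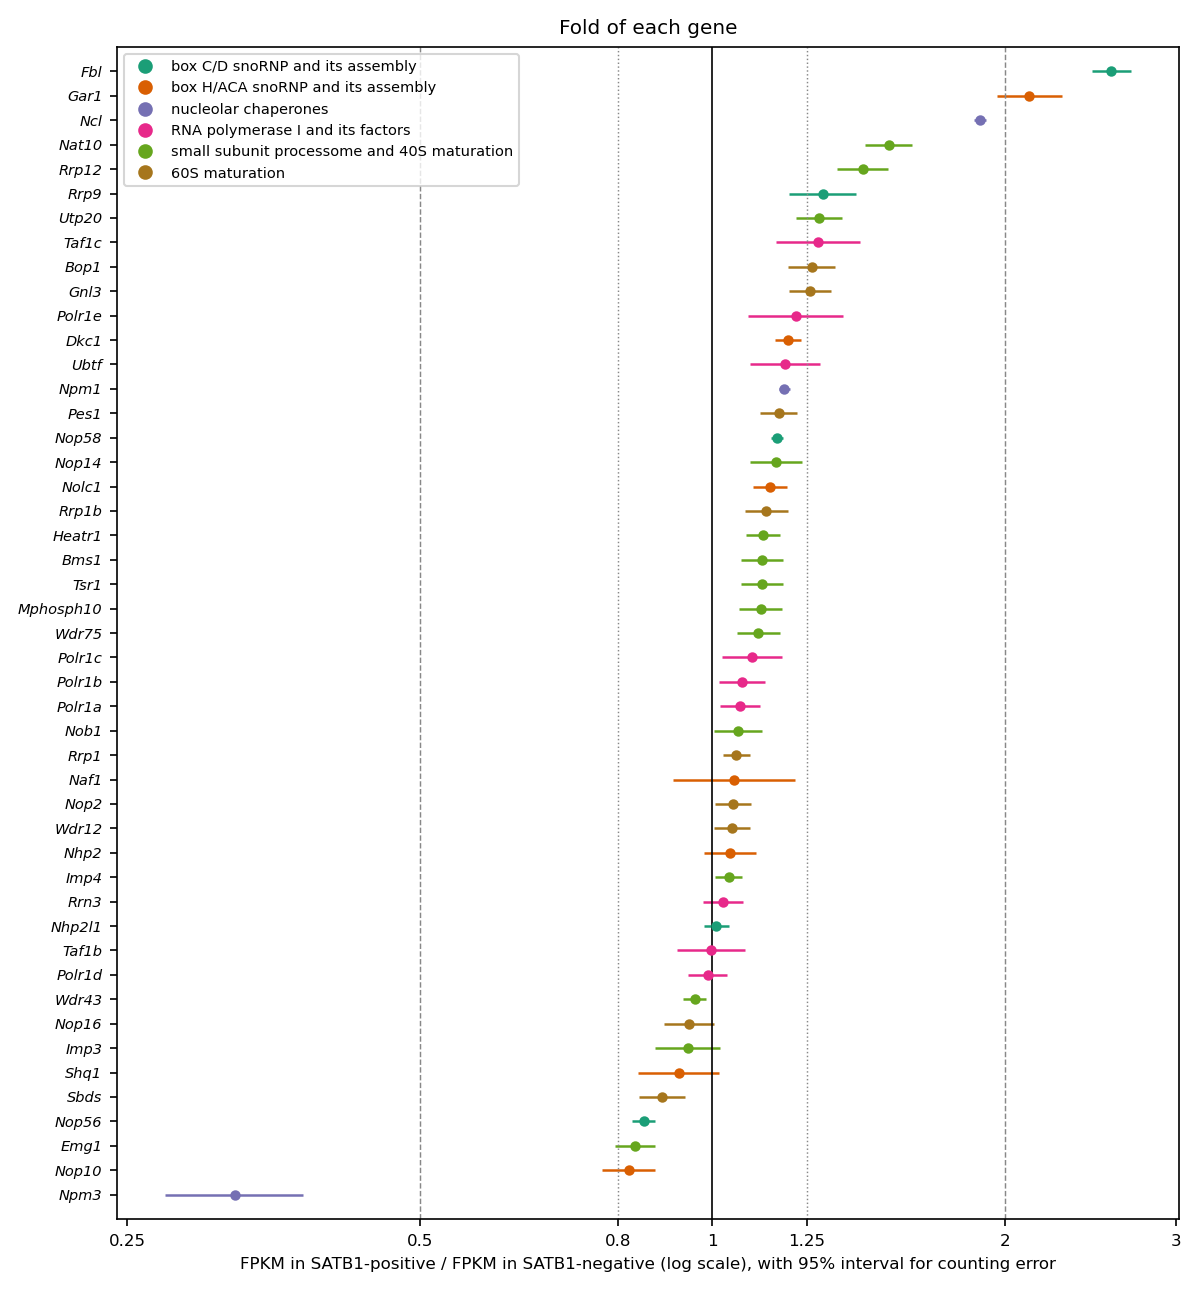
Fold of each of the 47 genes (FPKM in SATB1-positive over FPKM in SATB1-negative HSCs, log scale), coloured by role, with bars for the 95% counting interval and 1 library per group. Dotted lines mark the smaller rule and dashed lines 2-fold in either direction. Fbl (2.57) and Gar1 (2.12) lie beyond 2-fold on the higher side and Npm3 (0.322) on the lower side, while most genes lie close to 1.

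The promoters of 3 of these 4 genes are shown because they are the genes farthest from the rest, and that of Rrn3, which joins RNA polymerase I to its promoters, because it holds a pair of CACGTG matches. Fbl had no entry in the promoter table. Each window runs from 250 bases before to 50 bases after the gene start (RefSeq, build GRCm38.p6, which is mm10), 5′ to 3′ on the strand of the gene. The Gar1 window is chr3:129831347-129831646 (minus strand), that of Ncl chr1:86359406-86359705 (minus strand), that of Npm3 chr19:45749516-45749815 (minus strand) and that of Rrn3 chr16:13780449-13780748 (plus strand). Gene spans given further on come from GENCODE M21, whose gene starts can differ from those of RefSeq. The Ncl window lies wholly before the GENCODE start of Ncl, which is base 86359400. Capitals mark matches to 4 searched motifs.
Gar1: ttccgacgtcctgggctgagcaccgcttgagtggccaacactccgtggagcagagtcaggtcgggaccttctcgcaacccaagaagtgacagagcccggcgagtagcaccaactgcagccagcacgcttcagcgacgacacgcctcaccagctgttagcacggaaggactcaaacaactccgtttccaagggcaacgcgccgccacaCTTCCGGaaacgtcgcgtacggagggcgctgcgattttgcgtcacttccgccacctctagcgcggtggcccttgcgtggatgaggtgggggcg
Ncl: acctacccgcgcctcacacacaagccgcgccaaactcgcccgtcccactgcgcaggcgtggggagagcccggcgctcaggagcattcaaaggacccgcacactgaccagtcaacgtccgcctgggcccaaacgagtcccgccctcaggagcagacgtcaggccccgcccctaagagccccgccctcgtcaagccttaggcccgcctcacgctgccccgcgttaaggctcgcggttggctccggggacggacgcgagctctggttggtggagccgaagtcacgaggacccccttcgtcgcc
Npm3: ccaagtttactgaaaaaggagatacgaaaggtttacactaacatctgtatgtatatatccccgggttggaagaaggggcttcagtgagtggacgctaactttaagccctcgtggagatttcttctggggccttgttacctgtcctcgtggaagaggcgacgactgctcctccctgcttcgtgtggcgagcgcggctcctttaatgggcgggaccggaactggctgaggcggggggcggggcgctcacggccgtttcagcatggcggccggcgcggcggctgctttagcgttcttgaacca
Rrn3: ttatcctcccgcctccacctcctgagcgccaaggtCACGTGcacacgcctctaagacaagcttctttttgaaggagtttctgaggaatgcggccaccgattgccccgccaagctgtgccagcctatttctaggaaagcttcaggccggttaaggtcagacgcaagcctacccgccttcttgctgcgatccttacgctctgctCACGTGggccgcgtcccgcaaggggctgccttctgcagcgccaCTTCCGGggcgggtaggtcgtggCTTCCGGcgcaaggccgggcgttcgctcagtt

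The motifs were CACGTG (the E-box bound by Myc with Max), CCGGAAG (the core of many ETS factor sites), GCATGCGC (the core of the NRF1 motif) and CTCGCGAG, each searched on both strands. Of the 47 genes, 41 had a promoter in the table. CACGTG was present for 7 of the 41, 17.1%, against 12.03% of 9341 genes with at least 1 FPKM and a promoter, and 8.09% of all 27025 genes in the table. The 7 were Rrn3, Wdr43, Utp20, Tsr1, Imp4, Nop2 and Pes1. CCGGAAG was present for 16 of the 41, 39.0%, against 20.98% of the measured genes and 9.93% of all genes, and Gar1 was among the 16. GCATGCGC was present for 2 of the 41, Ubtf and Nob1, 4.88%, against 6.21% of the measured genes and 3.05% of all genes. CTCGCGAG was present for 1 of the 41, Tsr1, 2.44%, against 2.21% of the measured genes and 1.04% of all genes. Neither the Ncl nor the Npm3 window held any of the 4 letter strings. The 7 genes with CACGTG had a median log2 ratio of 0.07 and the 34 without it 0.14, and 6 of the 7 had a ratio above 0. Genes with several annotated starts were counted once if any window matched.

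The box C/D snoRNP genes held the largest ratio of the 47. These particles guide ribose methylation of ribosomal RNA, and the 5 genes summed to 733 FPKM in SATB1-positive and 616 FPKM in SATB1-negative HSCs. Fbl, the methyltransferase fibrillarin, was at 199.9 FPKM in the SATB1-positive and 77.7 FPKM in the SATB1-negative library, 2.57-fold higher (2.46 to 2.70; log2 ratio 1.35). Its partners in the particle differed by less. Nop58, a scaffold protein of the particle, was at 145 FPKM in SATB1-positive and 124 FPKM in SATB1-negative HSCs, 1.16-fold higher (1.15 to 1.18). Nop56, the other scaffold protein, was at 202 FPKM in SATB1-positive and 237 FPKM in SATB1-negative HSCs, a fold of 0.850 (0.827 to 0.873), so it was lower in the SATB1-positive library. Nhp2l1, which binds the kink-turn of the guide RNA, was at 153 FPKM in SATB1-positive and 151 FPKM in SATB1-negative HSCs, and its interval of 0.979 to 1.04 includes 1. Rrp9, a protein particular to the U3 snoRNP, was at 33.6 FPKM in SATB1-positive and 25.9 FPKM in SATB1-negative HSCs, 1.30-fold higher (1.199 to 1.405).

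Fbl thus made up a larger share of the transcripts for the 4 core proteins in the SATB1-positive library, 28.6% of their summed FPKM against 13.2% in the SATB1-negative library. The share of Nop56 was 28.8% in SATB1-positive and 40.2% in SATB1-negative HSCs, while that of Nop58 was nearly the same, 20.7% in SATB1-positive and 21.1% in SATB1-negative HSCs. The ratio of Fbl to Nop58 was 1.38 in the SATB1-positive and 0.625 in the SATB1-negative library. Fbl (ENSMUSG00000046865.7) spans bases 28169710 to 28179269 of chromosome 7 (mm10, plus strand). Of the 1148 words of 50 bases in its transcript, 73.0% also occur in annotated transcripts of other genes on either strand, mostly of Tulp4. For Nop56 this share was 37.6%. The FPKM of both genes therefore depends on how fragments that fit several places were assigned, and that was not tested.

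The box H/ACA genes showed the same arrangement, with 1 protein apart from its partners. Gar1, a core protein of the pseudouridylating particle, was at 61.7 FPKM in the SATB1-positive and 29.1 FPKM in the SATB1-negative library, 2.12-fold higher (1.96 to 2.29; log2 ratio 1.06). Its 50-base words were found in 0 transcripts of other genes, and no exon of a gene on the opposite strand overlaps its exons. It spans bases 129824912 to 129831396 of chromosome 3 (minus strand). With a pseudocount of 5 in place of 1 its log2 ratio was 0.97, under the 2-fold rule. Dkc1, the pseudouridine synthase dyskerin, which also belongs to telomerase, was at 110.5 FPKM in SATB1-positive and 92.3 FPKM in SATB1-negative HSCs, 1.197-fold higher (1.16 to 1.23). Nhp2, another core protein, was at 83.3 FPKM in SATB1-positive and 79.9 FPKM in SATB1-negative HSCs, with an interval of 0.981 to 1.11. Nop10, the smallest core protein, was at 64.7 FPKM in SATB1-positive and 78.9 FPKM in SATB1-negative HSCs, a fold of 0.820 (0.769 to 0.873). Gar1 made up 19.3% of the summed FPKM of these 4 genes in the SATB1-positive and 10.4% in the SATB1-negative library, and Nop10 made up 20.2% in SATB1-positive and 28.2% in SATB1-negative HSCs.

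The factors that build the H/ACA particle differed little. Naf1, an assembly factor that Gar1 replaces in the mature particle, was the least abundant of the 47 genes, at 4.63 FPKM in SATB1-positive and 4.398 FPKM in SATB1-negative HSCs. Shq1, a chaperone of dyskerin, was at 15.1 FPKM in SATB1-positive and 16.4 FPKM in SATB1-negative HSCs, and the intervals of both folds include 1. Nolc1, a nucleolar chaperone of snoRNPs, was at 59.7 FPKM in SATB1-positive and 52.1 FPKM in SATB1-negative HSCs, 1.15-fold higher (1.0998 to 1.193).

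**Figure D2:**
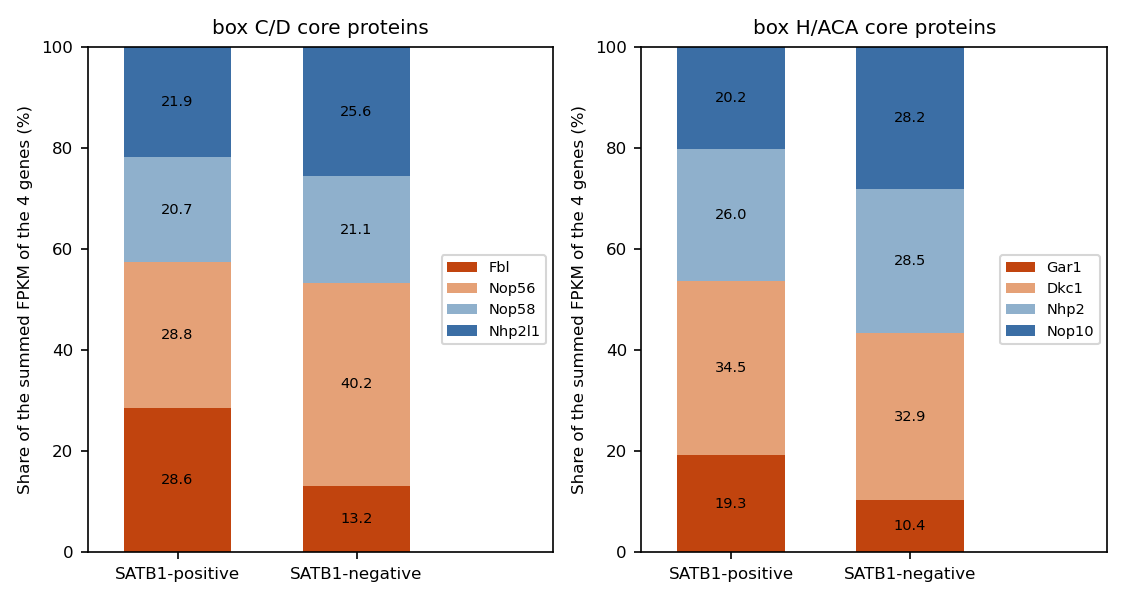
Share (%) of each core protein gene in the summed FPKM of the 4 core genes of the box C/D particle (left) and the box H/ACA particle (right), in 1 SATB1-positive and 1 SATB1-negative library. Fbl takes 28.6% in SATB1-positive and 13.2% in SATB1-negative HSCs, and Gar1 takes 19.3% in SATB1-positive and 10.4% in SATB1-negative HSCs.

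The nucleolar chaperones differed in both directions. Ncl, nucleolin, which binds the nascent precursor RNA, was at 225 FPKM in the SATB1-positive and 119.7 FPKM in the SATB1-negative library, 1.88-fold higher (1.86 to 1.91; log2 ratio 0.91), just under the 2-fold rule. Npm1, nucleophosmin, was by far the most abundant of the 47 genes, at 1645 FPKM in SATB1-positive and 1387 FPKM in SATB1-negative HSCs, 1.19-fold higher (1.17 to 1.201). Npm3, a small relative of nucleophosmin, went the other way, at 10.2 FPKM in the SATB1-positive and 31.5 FPKM in the SATB1-negative library, for a fold of 0.322 (0.274 to 0.379; log2 ratio -1.54). The ratio of Npm1 to Npm3 was 162.0 in the SATB1-positive and 44.1 in the SATB1-negative library.

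These genes carry features that bear on their counting. Ncl (chromosome 1, 86344719 to 86359400, minus strand) contains snoRNA genes, of which Snora75 overlaps an annotated exon and was at 64.7 FPKM in SATB1-positive and 41.5 FPKM in SATB1-negative HSCs. Npm3 (chromosome 19, 45747734 to 45749591, minus strand) overlaps an antisense gene, Gm15491, exon to exon. Of its 839 words of 50 bases, 36.1% occur in 2 other genes, mostly the pseudogene Npm3-ps1. About 187 fragments in the SATB1-positive and 751 in the SATB1-negative library lie behind its FPKM values. Of the words of Npm1, 49.2% occur in transcripts of 11 other genes. The part of these overlaps and copies in the differences was not tested. The 10 genes with at least 10% shared words were Fbl, Nop56, Nhp2l1, Npm1, Npm3, Polr1d, Taf1c, Tsr1, Pes1 and Wdr12. Over the other 37 genes, 29 had a ratio above 0 and the median log2 ratio was 0.15, as over all 47. The 18 genes with an exon that overlaps an exon on the opposite strand had a median of 0.16, and the other 29 genes 0.13. The 7 genes that contain snoRNA genes (Dkc1, Gnl3, Ncl, Nop56, Nop58, Tsr1 and Wdr43) had a median of 0.22 with 5 above 0, and the other 40 genes 0.11 with 31 above 0.

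RNA polymerase I and its factors differed by little, mostly on the higher side. Of the 9 genes, 7 had a ratio above 0 and 2 below, with a median log2 ratio of 0.10. None passed the 2-fold rule. Polr1a, the largest subunit of the enzyme, was at 13.3 FPKM in the SATB1-positive and 12.5 FPKM in the SATB1-negative library, 1.07-fold (1.02 to 1.12). Polr1b, the second largest, was at 23.1 FPKM in SATB1-positive and 21.5 FPKM in SATB1-negative HSCs, 1.07-fold (1.02 to 1.13), so the ratio of Polr1a to Polr1b was 0.577 in SATB1-positive and 0.580 in SATB1-negative HSCs. Polr1c and Polr1d encode subunits that are shared with RNA polymerase III. Polr1c was at 47.0 FPKM in SATB1-positive and 42.8 FPKM in SATB1-negative HSCs. Polr1d was at 130.7 FPKM in SATB1-positive and 132 FPKM in SATB1-negative HSCs, the highest level of the 5 enzyme genes. Polr1e, a subunit of the initiation module, was at 14.8 FPKM in SATB1-positive and 12.2 FPKM in SATB1-negative HSCs, 1.22-fold (1.09 to 1.36).

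Of the factors that bring the enzyme to its promoter, Taf1c had the largest ratio of the role and the others lay within the range of the enzyme genes. Rrn3, which joins the enzyme to the promoter complex, was at 34.4 FPKM in the SATB1-positive and 33.5 FPKM in the SATB1-negative library, with an interval of 0.979 to 1.08. Ubtf, which binds and opens ribosomal DNA, was at 47.0 FPKM in SATB1-positive and 39.6 FPKM in SATB1-negative HSCs, 1.19-fold higher (1.09 to 1.29). Of the promoter selectivity factor, Taf1b was level at 24.5 FPKM in SATB1-positive and 24.6 FPKM in SATB1-negative HSCs. Taf1c was at 9.71 FPKM in SATB1-positive and 7.56 FPKM in SATB1-negative HSCs, 1.28-fold higher (1.16 to 1.42), and was the 1 gene of this role past the smaller rule. Its words are shared to 14.2% with other genes, mostly the overlapping Dnaaf1.

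**Figure D3:**
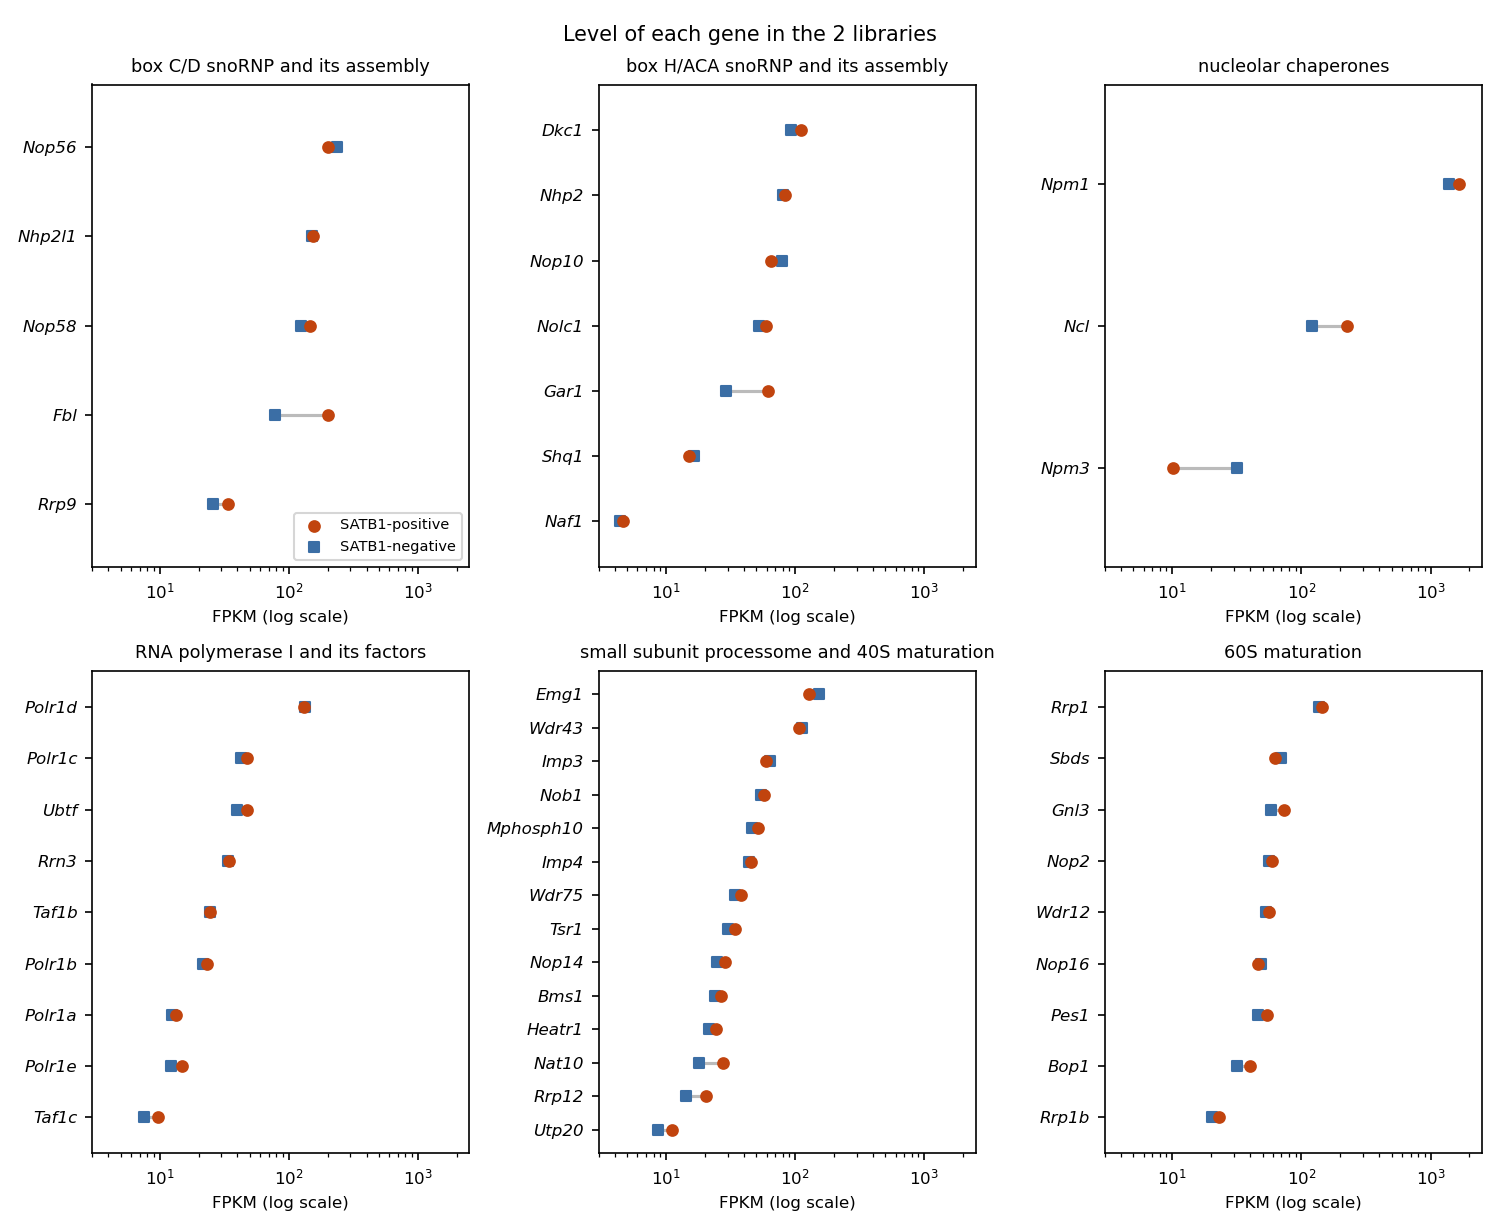
FPKM (log scale) of each of the 47 genes, by role, with circles for the SATB1-positive and squares for the SATB1-negative library (1 library each). The circle and the square nearly coincide for most genes, and are well apart for Fbl, Gar1, Ncl and Npm3.

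The row for the product of the enzyme differed by more than the rows for its subunits. Rn45s, the row for the ribosomal RNA precursor, was at 1437 FPKM in the SATB1-positive and 472 FPKM in the SATB1-negative library, 3.05-fold higher, and made up 0.289% of all summed FPKM in SATB1-positive and 0.0948% in SATB1-negative HSCs. Reads from mature ribosomal RNA also fit this row, ribosomal DNA is repeated, and how ribosomal RNA was kept out of the libraries was not given in the sources used here. The value is therefore given as listed, without an interval. Few guide RNAs had values in both libraries. Of 114 rows for snoRNAs and small Cajal body RNAs, 77 were listed at 0 in both libraries, 8 in the SATB1-positive library alone and 9 in the SATB1-negative library alone, while 20 were above 0 in both. The RNA of RNase MRP, Rmrp, was listed at 0.478 FPKM in SATB1-positive and 0 FPKM in SATB1-negative HSCs, that of RNase P, Rpph1, at 0 FPKM in SATB1-positive and 0.468 FPKM in SATB1-negative HSCs, and the telomerase RNA Terc at 0.388 FPKM in SATB1-positive and 0.298 FPKM in SATB1-negative HSCs. Rn4.5s was listed at 0 in both libraries.

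Among the 14 genes of the small subunit, 11 had a ratio above 0, the median was 0.16, and the genes summed to 661 FPKM in the SATB1-positive and 649 FPKM in the SATB1-negative library. Nat10, Rrp12 and Utp20 had the largest ratios of the role. Nat10, the acetyltransferase of the small-subunit RNA, was at 27.5 FPKM in SATB1-positive and 18.1 FPKM in SATB1-negative HSCs, 1.52-fold higher (1.44 to 1.61). Rrp12, a factor for export of pre-ribosomes, was at 20.4 FPKM in SATB1-positive and 14.2 FPKM in SATB1-negative HSCs, 1.43-fold higher (1.34 to 1.52). Utp20, a very long scaffold protein, was at 11.2 FPKM in SATB1-positive and 8.66 FPKM in SATB1-negative HSCs, 1.29-fold higher (1.22 to 1.36). These 3 passed the smaller rule.

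The scaffold proteins that meet the precursor first, and Nop14, lay closer together. Heatr1 was at 24.4 FPKM in SATB1-positive and 21.6 FPKM in SATB1-negative HSCs. Wdr75 was at 38.4 FPKM in SATB1-positive and 34.4 FPKM in SATB1-negative HSCs. Nop14, which joins the processome with other factors, was at 28.8 FPKM in SATB1-positive and 24.8 FPKM in SATB1-negative HSCs, and the folds of these 3 genes were 1.11 to 1.16. Wdr43, of the same subcomplex as Heatr1 and Wdr75, was at 107.5 FPKM in SATB1-positive and 112 FPKM in SATB1-negative HSCs, a fold of 0.959 (0.933 to 0.985). The 3 genes of the Mpp10 complex, which binds the U3 snoRNA, had folds between 0.943 and 1.12. Mphosph10, after which the complex is named, was at 51.7 FPKM in SATB1-positive and 46.1 FPKM in SATB1-negative HSCs (1.12, 1.07 to 1.18). Imp3 was at 59.7 FPKM in SATB1-positive and 63.3 FPKM in SATB1-negative HSCs (0.943, 0.873 to 1.02). Imp4 was at 45.5 FPKM in SATB1-positive and 43.7 FPKM in SATB1-negative HSCs (1.04, 1.007 to 1.07). The sum of the 3 genes was 1.02-fold that of the SATB1-negative library.

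The remaining factors of the small subunit had folds between 0.833 and 1.12. The GTPase gene Bms1 was at 26.8 FPKM in the SATB1-positive and 23.8 FPKM in the SATB1-negative library. Its relative Tsr1 was at 33.9 FPKM in SATB1-positive and 30.2 FPKM in SATB1-negative HSCs. Nob1, the endonuclease that makes the final cut of the small-subunit RNA, was at 57.7 FPKM in SATB1-positive and 54.3 FPKM in SATB1-negative HSCs. Emg1, a methyltransferase, was the most abundant gene of the role and the lowest by ratio, at 127.7 FPKM in SATB1-positive and 153 FPKM in SATB1-negative HSCs (0.833, 0.795 to 0.873). Tsr1 shares 31.1% of its words with other genes, mostly the overlapping Srr.

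Among the 9 genes of the large subunit, 7 had a ratio above 0, and the median was 0.08. Gnl3, nucleostemin, a nucleolar GTPase known from stem cells, was at 73.5 FPKM in the SATB1-positive and 58.3 FPKM in the SATB1-negative library, 1.26-fold higher (1.199 to 1.325). Bop1, at 40.004 FPKM in SATB1-positive and 31.6 FPKM in SATB1-negative HSCs, was 1.27-fold higher (1.196 to 1.338), and these were the 2 genes of the role past the smaller rule. The partners of Bop1 in the PeBoW complex, which is needed to process the large-subunit RNA, are Pes1 and Wdr12. Pes1 was at 53.7 FPKM in SATB1-positive and 45.9 FPKM in SATB1-negative HSCs, 1.17-fold. Wdr12 was at 55.7 FPKM in SATB1-positive and 53.2 FPKM in SATB1-negative HSCs, 1.05-fold, so all 3 were on the higher side. The sum of the 3 genes was 1.14-fold that of the SATB1-negative library, and Bop1 made up 26.8% of it in SATB1-positive and 24.2% in SATB1-negative HSCs.

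None of the other large-subunit genes passed the smaller rule. Nop2, an RNA methyltransferase, was at 58.6 FPKM in SATB1-positive and 55.9 FPKM in SATB1-negative HSCs. Nop16, a factor of early pre-ribosomes, was at 45.7 FPKM in SATB1-positive and 48.3 FPKM in SATB1-negative HSCs. Rrp1 and Rrp1b are relatives of a yeast processing factor of the large subunit. Rrp1, the most abundant of the role, was at 145 FPKM in SATB1-positive and 137 FPKM in SATB1-negative HSCs. Rrp1b was at 23.01 FPKM in SATB1-positive and 20.3 FPKM in SATB1-negative HSCs. Sbds, which helps release an anti-association factor from the new subunit and is mutated in Shwachman-Diamond syndrome, was at 61.8 FPKM in the SATB1-positive and 69.6 FPKM in the SATB1-negative library, for a fold of 0.888 (0.841 to 0.937). It was the lowest of the 9 by ratio.

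Genes with long coding sequences more often had a ratio above 0 than genes with short ones. Of the 13 genes with a coding length under 1000 bases, 6 had a ratio above 0, with a median log2 ratio of -0.02, and of the 19 genes with 2000 bases or more, 18 did, with a median of 0.18. The 15 genes between had a median of 0.09. Spearman's rho between the ratio and the coding length was 0.45 over the 47 genes, a description across genes of the same 2 libraries. All protein-coding genes with at least 1 FPKM showed a weaker relation of the same sign (rho 0.18, n = 11260), with medians of -0.06, -0.00022 and 0.06 in the same length classes. In each class the median of the ribosome biogenesis genes was above that of all genes. The part of length in the difference was not tested. Against the mean level rho was -0.18 over the 47 genes.

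**Figure D4:**
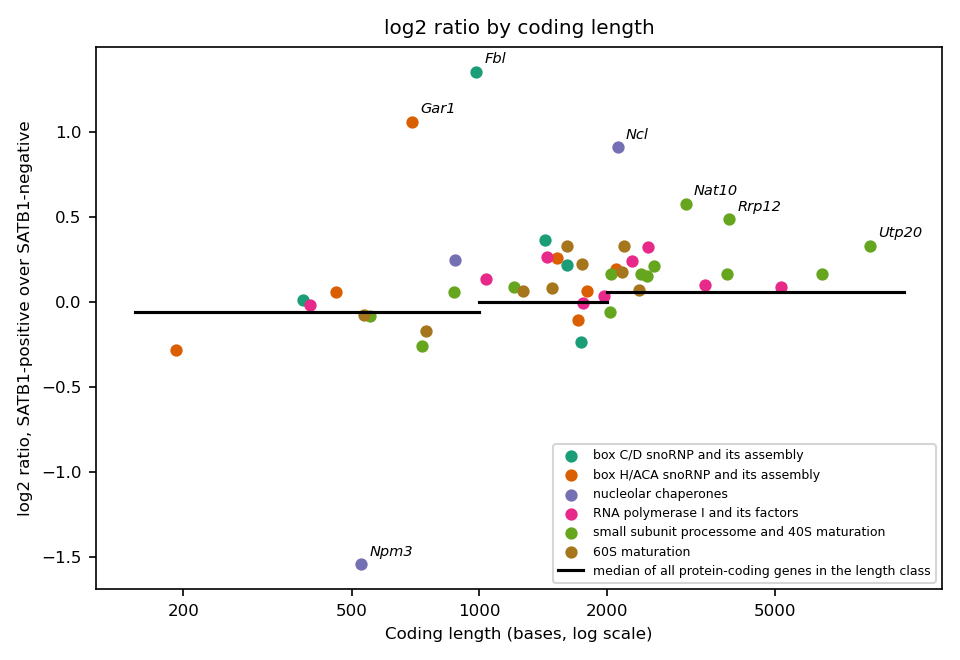
log2 ratio (SATB1-positive over SATB1-negative) of each of the 47 genes against coding length in bases (log scale), coloured by role, with black lines for the median of all protein-coding genes in each length class. Of the 19 longest genes, 18 lie above 0, and the named short genes Fbl and Gar1 lie above and Npm3 far below the rest.

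Further genes of the pathway, from 4 wider lists chosen in the same way, had a median closer to 0 than the 47. Of 165 symbols, 149 were in the files and 147 had at least 1 FPKM, and 97 of these had a ratio above 0 and 50 below, with a median of 0.05. By the 2-fold rule 0 of 146 passed in either direction. By the smaller rule 11 were higher, 7.53% against 11.1% of all genes, and 1 was lower, 0.685% against 10.2%, so in both directions fewer passed than among all genes. The largest ratios of these lists belonged to the small-subunit list, where Pdcd11, a large processome scaffold, was at 9.63 FPKM in the SATB1-positive and 6.35 FPKM in the SATB1-negative library (log2 ratio 0.53), Utp6 at 25.2 FPKM in SATB1-positive and 18.4 FPKM in SATB1-negative HSCs (0.44), and Nol10 at 10.96 FPKM in SATB1-positive and 7.87 FPKM in SATB1-negative HSCs (0.43). The lowest of that list were Tsr2 (-0.18), Ngdn (-0.15) and Trmt112 (-0.13). In the large-subunit list the highest were Nol9, a kinase of ribosomal RNA processing (0.41), Rbm28 (0.39) and Surf6 (0.37), and the lowest Rrp15 (-0.26), Gltscr2 (-0.24) and Ddx56 (-0.19).

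The other two lists had medians near 0. Over the further genes of RNA polymerase I and regulators of ribosomal DNA, 9 of 17 had a ratio above 0, and the median was 0.01. Kdm2a (0.24), Taf1d (0.22) and Mybbp1a (0.20) were the highest by log2 ratio. Znrd1, a small subunit of the enzyme, was the 1 gene of all 4 lists lower by the smaller rule, at 31.6 FPKM in the SATB1-positive and 41.3 FPKM in the SATB1-negative library (-0.38), followed by Cd3eap, another subunit (-0.21), and Polr2l (-0.18). Over genes of snoRNP assembly, the exosome and RNase MRP, 18 of 34 had a ratio above 0, and the median was 0.0054. Pop1 (0.34), Rpp40 (0.29) and Exosc2 (0.22) were the highest, and Pop5 (-0.26), Exosc10 (-0.21) and C1d (-0.18) the lowest.

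**Figure D5:**
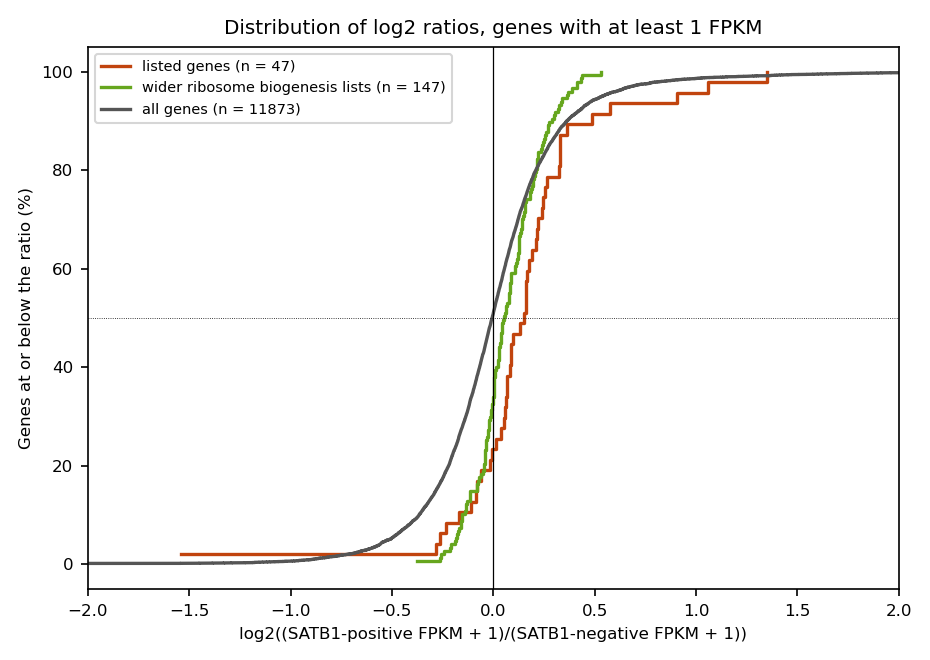
Cumulative share (%) of genes at or below each log2 ratio (SATB1-positive over SATB1-negative), for the 47 listed genes, 147 genes of the wider ribosome biogenesis lists and 11873 genes in all, each with at least 1 FPKM. The medians are 0.15, 0.05 and -0.0059, and ratios beyond -2 or 2 are not drawn.

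The protein components of the ribosome itself went the other way. Of 80 cytosolic ribosomal protein genes with at least 1 FPKM, 58 had a ratio below 0 and 22 above. Their median log2 ratio was -0.15, and they summed to 50334 FPKM in the SATB1-positive and 55985 FPKM in the SATB1-negative library. Genes of this list are short, and many have near-identical copies in the genome. The part of length and of copies in their ratios was not tested, nor was the difference between the 2 lists of genes. In its dimer with Max, Myc binds CACGTG and is a known activator of ribosome biogenesis genes. Myc was level at 139 FPKM in SATB1-positive and 138 FPKM in SATB1-negative HSCs. Mycn was at 41.5 FPKM in the SATB1-positive and 86.6 FPKM in the SATB1-negative library, and Max at 11.5 FPKM in SATB1-positive and 33.0 FPKM in SATB1-negative HSCs. The other measured genes of the network, Mxd1, Mxd3, Mxd4, Mxi1, Mnt, Mga and Mlx, had log2 ratios between -0.26 and 0.17, and Mycl1 was under 1 FPKM in both libraries.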

How the data were processed

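Per the labels' protocols, a stranded SMARTer kit (Clontech) was used to make 1 library from SATB1-positive and 1 from SATB1-negative HSCs. The values deposited by the authors are FPKM for each symbol, per the file headers. Cufflinks 2.2.1, SAMtools 0.1.19, Bowtie2 2.2.3 and TopHat2 2.0.13 and the build mm10 are named in the submitters' processing notes. Their roles and settings, the annotation, the strand setting and the treatment of multiply mapped reads were not given in the sources used here, so a gene and its antisense partner may not be told apart. Of 23235 rows per file, 25 whose symbol had become a date were left out.

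As the files hold FPKM without counts, Python 3.11.15 was used to estimate depth from low FPKM of genes with 1 exon and 1 transcript, searching depth and a fragment-length offset of 150 to 260 bases for values that are whole within 0.05 fragments; of the depths with nearly the best share the lowest was kept. Double that depth gave a like share of whole values, 57.7% in the SATB1-positive and 55.7% in the SATB1-negative library, but 4 of 105 and 3 of 83 of these were odd numbers, so the lower depth was used for both. The share was 60.2% of 226 values in the SATB1-positive and 58.5% of 193 in the SATB1-negative library. Fragments per gene then follow from the FPKM and the shortest RefSeq-linked transcript in GENCODE M21 (mm10); 22710 symbols, 97.8%, matched, including all 47 genes described. Intervals are exact (Clopper-Pearson) 95% intervals on the split of these fragments. PCR copies count as separate fragments, so the intervals can be too narrow. The intervals also depend on the length used, which for some genes is far from the coding length. For Ncl it was 8202 bases against 2121 coding bases, for Nop58 9507 against 1608 and for Imp4 5836 against 873. For Ubtf it was 1062 bases, below its coding length of 2292 bases. With the coding length the Ncl interval was 1.83 to 1.94.

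No test across samples exists with 1 library per group. Lists are described by counts and medians over genes that reached 1 FPKM in at least 1 library. The genes, lists and rules were chosen with earlier results of these data known. Named were all 47 genes, the 3 highest and 3 lowest of each wider list, the Myc network, Satb1 and the named non-coding RNAs. Kit, Flt3, Cd48, Slamf1 and the genes named for shared words or overlaps were chosen after their values were seen. Alternatives tried were a pseudocount of 0.1 or 5, TPM, upper-quartile and median-ratio scaling, stricter and no filters, a 4-fold threshold and other transcript lengths. The promoter motifs GCATGCGC and CTCGCGAG are cores chosen after longer forms of both had been searched and matched none of the windows of the 47 genes.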

Additional observations from a re-analysis of the deposited data

How the results depend on the processing

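No direction of any of the 47 genes beyond its counting interval turned under pseudocounts of 0.1 and 5 or under scaling by the median ratio, to TPM or by the upper quartile. Of 235 such values, 230 moved by no more than the mean log2 distance from that gene's own fold to its counting bounds. The other 5 (Ncl, Npm3, Utp20, Rrp12 and Nat10, all with a pseudocount of 5) moved by more. The median log2 ratio of the 47 genes stayed between 0.13 and 0.16 under all alternatives, including those added after seeing the data (without Fbl, Gar1, Ncl and Npm3, and with shared-word genes left out), and that of the wider lists between 0.05 and 0.06. With a pseudocount of 5, 1 gene in place of 2 was higher by the 2-fold rule. Over all genes 68 in place of 122 were then higher and 36 in place of 64 lower by that rule, since a larger pseudocount shrinks ratios. By the smaller rule 6 of the 47 genes in place of 10 were higher. All genes were not counted by the smaller rule at this pseudocount, so these 6 have no share beside them. At a 4-fold threshold 0 of the 46 eligible genes were higher and 0 lower, against 24 and 25 of all 9308 eligible genes. With so few of all genes past it, a count of 0 among 46 does not set these genes apart. Scaled to TPM, 100 genes of all were lower by the 2-fold rule, since the fixed pseudocount and minimum then weigh less. The count of intervals above 1 was 29 in place of 32, and below 1 it was 5 in place of 6, when fragments were estimated from the coding length, an alternative added after seeing the data. Leaving out a replicate was not possible. No paired analysis was possible because each group has 1 library. Depth limits the genes with few fragments, such as Npm3, and the spread between animals or sorts was not measured.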
